A study of Mus musculus with 42 samples.

Results

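The vas deferens of Hoxa9,10,11-/-d9,10,11+/- mice was compared with the wild-type vas deferens, over every gene that the array's probe sets name singly. In these mice both copies of Hoxa9, Hoxa10 and Hoxa11 and 1 copy of Hoxd9, Hoxd10 and Hoxd11 are mutant. The comparison used 6 of the series' 42 arrays, 3 per genotype, and 19938 genes built from 21789 of 28856 probe sets. The members were the arrays whose titles give these genotypes for vas deferens. The genotypes used here were Hoxa9,10,11-/-d9,10,11+/- (AKDH), Hoxa9,10,11-/- (AKO), Hoxa9,10,11+/-d9,10,11-/- (AHDK), Hoxd9,10,11-/- (DKO) and wild type (WT). All were adults of 3 to 7 months on a mixed CD1/129 background, and every group held 3 arrays that the labels call biological replicates. The labels name no driver line or cell type for the mutations. The AKO and WT caudal epididymis and the AKDH and WT uterus were also used, as landmarks and for 1 comparison between tissues. The labels do not say whether the arrays of a group came from separate animals, so the p-values reflect only how far these arrays differ from one another.

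Hox genes encode homeodomain transcription factors that lie in 4 clusters and give segments along the body axis their identity. Genes of paralogous groups 9 to 13 pattern the reproductive tract, and the posterior Hoxa and Hoxd genes share much of their function. The Wolffian duct becomes the epididymis in front and the vas deferens behind, and loss of Hoxa10 or Hoxa11 is known to turn the vas deferens towards an epididymal form. The epididymis secretes defensins, protease inhibitors and acid that act on sperm. The vas deferens is a muscular tube with its own epithelial enzymes, among them aldo-keto reductases.

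The deposited values are taken as log2 values, and each probe set has its median over the 21 male arrays at 0. A value of 1 thus stands 1 log2 unit above the middle male array. Levels cannot be set against each other between genes, and each difference below is a log2 difference between group means with its SE. A gene was called when its adjusted p in limma fell below 0.05 (Benjamini-Hochberg over the 19938 genes, 1 fit on the 15 vas deferens arrays). In whole tissue, fewer cells of a type and less RNA per cell cannot be told apart.

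AKDH replicate 3 stood apart from the other AKDH arrays. In this array 758 genes lay over 1 log2 unit from the mean of the other AKDH arrays, against 429 and 374 genes for replicates 1 and 2. In WT the same counts were 102, 66 and 186 for replicates 1, 2 and 3. The mean of 35 sperm and spermatid genes was -0.60, -0.44 and 1.30 in the AKDH arrays and 0.01, -0.12 and 0.21 in the WT arrays. The mean of 30 motile cilia genes was -0.19, -0.12 and 1.10 in AKDH and -0.03, -0.01 and 0.01 in WT. Main counts are therefore also given without AKDH replicate 3. List counts were also taken without each of the 6 arrays in turn, and counts of 1 or 2 members mostly varied between 0 and 3.

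The targeted genes were examined first, beside the genotypes in the titles. Hoxa11, the most posterior of the targeted Hoxa genes, had values of -0.44, -0.71 and -0.84 in AKDH and 1.38, 1.17 and 0.43 in WT. All AKDH values lay below all WT values, and Hoxa11 was called lower (-1.66, SE 0.31, adjusted p = 0.0027). Values of the genotypes did not overlap, in either direction, for 41.5% of all genes. Hoxa10, known for its part in uterus and vas deferens identity, gave -0.15, -0.29 and -0.44 in AKDH and 0.90, 0.65 and 0.15 in WT, and was called lower (-0.86, SE 0.24, adjusted p = 0.0243). Hoxa9 did not mark the mutant: its values were 0.48, -0.02 and -0.13 in AKDH and -0.32, 0 and -0.19 in WT (0.28, SE 0.19, adjusted p = 0.299). The titles give mutant alleles and do not say whether gene sequence was removed. If it was, a whole-transcript probe set can lie partly outside the removed part. Where these probe sets lie is not known here, so RNA levels need not follow the alleles.

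The Hoxd genes, of which AKDH keeps 1 copy, gave a mixed picture. Hoxd11 stood at 0.11, -0.20 and -0.24 in AKDH and at 0.66, 0.67 and 0.13 in WT, with no overlap, and was called lower (-0.60, SE 0.17, adjusted p = 0.0269). Hoxd10 overlapped between the genotypes, with 0.20, -0.22 and -0.11 in AKDH and 0.33, 0.24 and -0.20 in WT (-0.17, SE 0.23, adjusted p = 0.613). Hoxd9 gave 0, 0.04 and -0.09 in AKDH and -0.26, -0.18 and -0.13 in WT (0.17, SE 0.08, adjusted p = 0.156). Thus 3 of the 6 targeted genes were called, all lower, beside 14.8% of all genes tested called lower. The count was 1 without AKDH replicate 2, AKDH replicate 3, WT replicate 1 or WT replicate 2. Without AKDH replicate 3, only Hoxa11 of the 6 kept its call (-1.57, adjusted p = 0.00942). Hoxa10 then gave -0.78 (adjusted p = 0.0616) and Hoxd11 -0.54 (adjusted p = 0.0697).

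**Figure D1:**
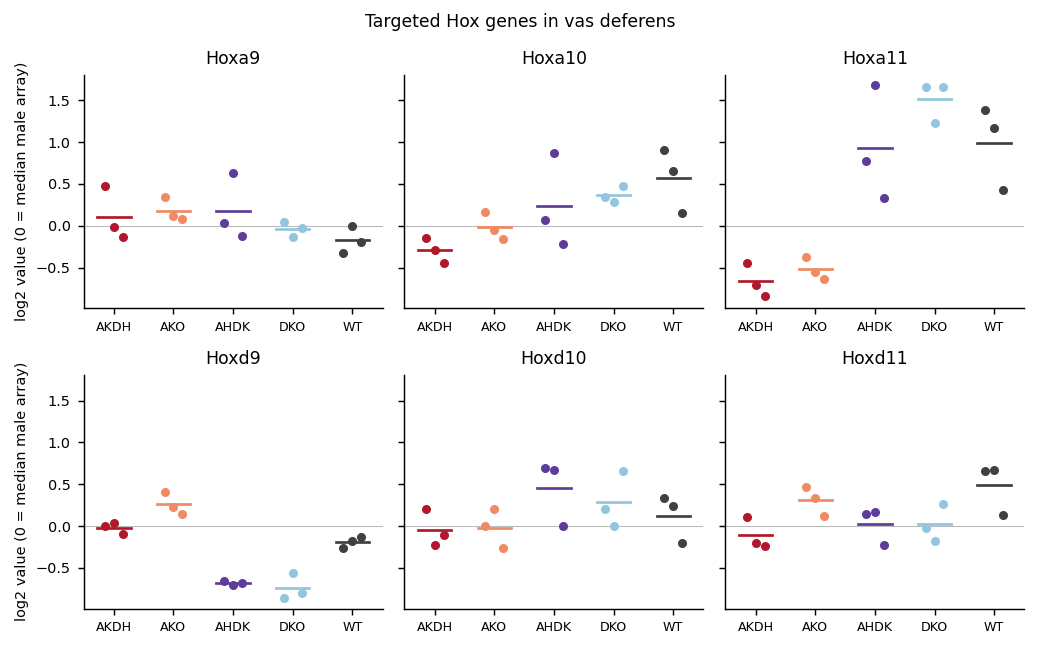
Log2 values of the 6 targeted Hox genes (vertical axis, 0 at the median male array) in the vas deferens of 5 genotypes; each point is 1 array and each bar the mean of 3. Hoxa11 lies between -0.84 and -0.44 in AKDH and between 0.43 and 1.38 in WT, while Hoxa9 and Hoxd10 overlap.

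The change reached far beyond the Hox clusters. Of the 19938 genes, 4849 were called (24.3%), 1908 of them higher in AKDH (9.57%) and 2941 lower (14.8%). Counts of called list members below are to be read beside these shares. Most calls were small, with a median absolute difference of 0.41 among called genes. A difference of at least 1 log2 unit was seen in 580 called genes, of which 346 were higher and 234 lower in AKDH. The split by direction depended on how arrays were scaled. Higher genes made up 39.3% of the calls as deposited, 50.2% after median centring of each array (4440 calls) and 53.3% after quantile normalization (3752 calls). Without AKDH replicate 3, 4708 genes were called (23.6%), 2172 higher (10.9%) and 2536 lower (12.7%).

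The largest rises were genes of the epididymis and its secretions. Among named genes, with uncharacterised transcripts (Gm and Rik numbers and the like), olfactory receptors and small RNAs passed over and the genotypes not overlapping, the 15 largest rises ranged from 2.88 to 4.36. Of these 15, 14 belong to a list of epididymis-high genes drawn from a contrast of other arrays. Rnase9, a secreted member of the ribonuclease A family made in the epididymis, had values of 0, 0.33 and -0.05 in AKDH and -4.09, -4.83 and -3.88 in WT. The gap between the genotypes was far larger than the spread within each, and the rise was 4.36 (SE 0.45, adjusted p = 8.88e-05). Gpr82, an orphan G protein-coupled receptor, had 0.17, 0.40 and 0.01 in AKDH and -3.67, -4.71 and -3.60 in WT (4.19, SE 0.33, adjusted p = 2.02e-05).

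Protease inhibitors followed. Eppin, an inhibitor with a WAP and a Kunitz domain that coats sperm, had 0.53, 0.44 and 0 in AKDH and -3.31, -3.79 and -3.37 in WT (3.81, SE 0.46, adjusted p = 0.000213). Spink13, a Kazal-type inhibitor, had 1.20, 0.86 and 0.54 in AKDH and -2.22, -2.96 and -2.91 in WT (3.56, SE 0.30). For both, every AKDH array lay far above every WT array. The whey acidic protein genes Wfdc13 (3.34, SE 0.63) and Wfdc6a (3.17, SE 0.52) rose as well, and so did the beta-defensins Defb38 (3.01, SE 0.43) and Defb37 (2.88, SE 0.28). Adam7, a membrane protease-like protein that the epididymis passes to sperm, rose by 3.49, but its WT values of -1.58, -4.59 and -3.10 spread widely (SE 0.89, adjusted p = 0.0152). Its AKDH values were 0.58, 0.61 and -0.01. The call of Adam7 was lost without WT replicate 2 and after quantile normalization.

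Enzymes of steroid, tryptophan and acid handling were also among the largest rises. Cyp17a1, the 17-alpha-hydroxylase of androgen synthesis, had 2.95, 1.53 and 0.96 in AKDH and -1.32, -1.62 and -1.27 in WT (3.21, SE 0.40, adjusted p = 0.000248). Car4, a membrane-bound carbonic anhydrase, had 1.64, 1.34 and 0 in AKDH and -2.61, -2.57 and -1.72 in WT (3.29, SE 0.39, adjusted p = 0.000174). In both genes AKDH replicate 3 was the lowest AKDH array and still lay above every WT array. Atp6v0d2, a subunit of the vacuolar proton pump, had 1.64, 0 and 1.16 in AKDH and -1.59, -2.74 and -1.64 in WT (2.92, SE 0.46). The other large rises were the chromatin remodelling ATPase Smarca1 (3.45), the galactosyltransferase B3galt2 (3.20) and Ido1, which starts tryptophan breakdown (3.04).

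Most of the largest falls were genes higher in vas deferens than in epididymis. By the same rule the 15 largest falls among named genes ranged from -4.29 to -2.51, and 11 of the 15 belong to a list of vas-high genes from that contrast. Rik and Gm transcripts passed over included the rises of Gm6040 (3.43) and Gm4988 (2.96) and the falls of D630023F18Rik (-3.58) and Gm5087 (-2.55). Akr1cl, an aldo-keto reductase, had -0.35, -0.34 and -0.48 in AKDH and 3.88, 3.53 and 4.18 in WT (-4.25, SE 0.22, adjusted p = 1.32e-06). Eci3, an enoyl-CoA isomerase of fatty acid oxidation, had -0.62, -0.61 and -0.80 in AKDH and 3.48, 4.03 and 3.31 in WT (-4.29, SE 0.24). Cdkl1, a cyclin-dependent kinase-like protein, had -0.94, -1.12 and -0.95 in AKDH and 3.33, 3.66 and 2.86 in WT (-4.29, SE 0.18, adjusted p = 3.17e-07). In these genes the AKDH arrays lay close together and far from WT.

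Cell surface and signalling genes made up much of the remaining falls. Ptprz1, a receptor tyrosine phosphatase, had -1.23, -1.07 and -1.30 in AKDH and 2.94, 3.16 and 2.99 in WT (-4.23, SE 0.39). Nmu, which encodes the peptide neuromedin U, had -0.23, 0 and -0.27 in AKDH and 3.37, 3.36 and 2.81 in WT (-3.35, SE 0.17). The collagen receptor subunit Itga2 fell by 3.20, the urea transporter Slc14a2 by 3.27, the cadherin Cdh17 by 3.03 and the lens protein gene Crygc by 3.11. The heparanase relative Hpse2 (-2.80), the immune receptor Pilra (-2.86) and the deiminase Padi2 (-2.54) fell too. The beta-defensin Defb30 fell by 3.81, against the direction of Defb37 and Defb38.

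The protamines, which pack DNA in sperm heads, were the only epididymis-high genes among the largest falls. Prm2 had -1.74, -1.49 and -1.57 in AKDH and 1.61, 0.70 and 1.67 in WT (-2.92, SE 0.64, adjusted p = 0.00683), and Prm1 fell by 2.51 (SE 0.60). Both are high in the WT epididymis, with means of 3.37 for Prm2 and 2.95 for Prm1, so their fall ran against the epididymal genes.

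**Figure D2:**
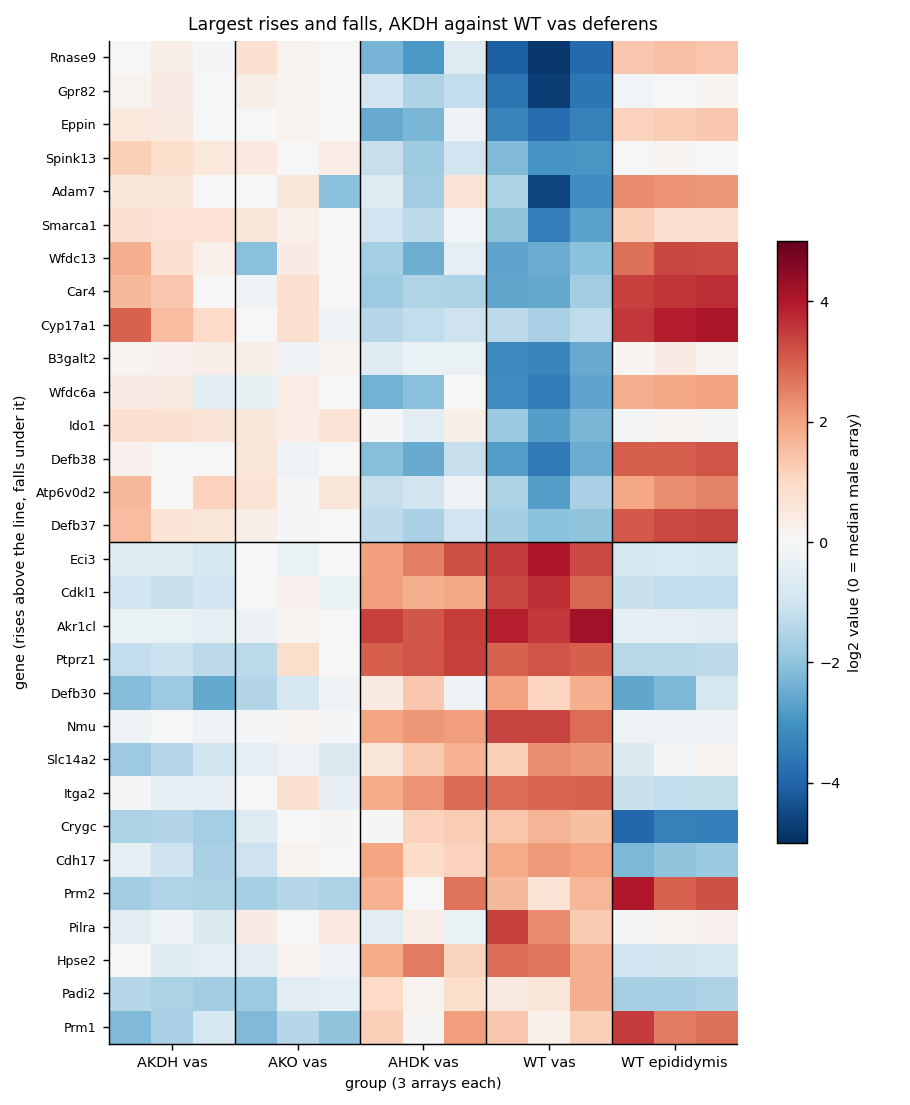
Log2 values (colour, red above and blue below the median male array) of the 15 largest rises and 15 largest falls of AKDH against WT vas deferens, in rows, over 3 arrays of each group, in columns. AKDH and AKO columns lie near 0 or beyond it for most genes, AHDK columns lie nearer to WT, and Cyp17a1 reaches 2.95 in 1 AKDH array.

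Start-site windows of 300 bases (250 before and 50 after the annotated start, RefSeq, build GRCm38.p6, read on the gene's strand) are shown for 2 of the largest rises and 2 of the largest falls, chosen after their values were seen, to let the start sites of genes that moved in opposite directions be read side by side. The posterior Hox core was searched as TTTATG. The Meis motif was searched as TGACAG. The androgen receptor motif was searched as AGAACA and the TATA box as TATAAA. Each was searched on both strands, none overlaps another in these windows, and matches are in capitals. Rnase9 lies at chr14:51041818-51042117 and Eppin at chr2:164593522-164593821. Akr1cl lies at chr1:65032710-65033009 and Cdkl1 at chr12:69790658-69790957. All 4 windows are on the minus strand.
Rnase9: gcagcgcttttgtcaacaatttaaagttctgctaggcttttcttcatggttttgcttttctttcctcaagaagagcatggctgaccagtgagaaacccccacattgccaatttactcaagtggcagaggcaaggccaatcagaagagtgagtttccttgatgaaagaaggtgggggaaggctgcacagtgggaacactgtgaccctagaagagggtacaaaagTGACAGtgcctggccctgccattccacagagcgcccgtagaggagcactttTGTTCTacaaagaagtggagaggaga
Eppin: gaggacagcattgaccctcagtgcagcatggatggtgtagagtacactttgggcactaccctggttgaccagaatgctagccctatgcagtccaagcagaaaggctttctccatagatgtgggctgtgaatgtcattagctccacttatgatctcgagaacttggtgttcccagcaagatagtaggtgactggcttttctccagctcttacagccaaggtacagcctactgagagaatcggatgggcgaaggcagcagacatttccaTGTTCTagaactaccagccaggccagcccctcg
Akr1cl: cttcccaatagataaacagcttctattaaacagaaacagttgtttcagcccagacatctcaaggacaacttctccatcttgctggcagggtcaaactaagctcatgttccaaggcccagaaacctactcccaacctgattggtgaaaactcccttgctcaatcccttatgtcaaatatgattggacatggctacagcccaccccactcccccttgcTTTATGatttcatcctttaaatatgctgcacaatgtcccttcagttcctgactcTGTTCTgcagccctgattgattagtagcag
Cdkl1: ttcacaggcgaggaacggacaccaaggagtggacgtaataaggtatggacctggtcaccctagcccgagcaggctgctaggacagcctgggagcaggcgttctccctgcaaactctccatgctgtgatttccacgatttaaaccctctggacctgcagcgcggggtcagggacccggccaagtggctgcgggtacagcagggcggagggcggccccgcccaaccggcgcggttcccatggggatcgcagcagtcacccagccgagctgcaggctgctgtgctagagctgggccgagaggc

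The Rnase9 window holds the Meis letters at position -27 and the androgen receptor letters at position 24, counted from the start site. Eppin holds the androgen receptor letters at position 17. Akr1cl holds the Hox letters at position -34 and the androgen receptor letters at position 20, and the Cdkl1 window holds none of the 4 motifs. Over the 15563 tested genes with a window, 9.77% held TTTATG, 18.3% TGACAG, 15.5% AGAACA and 12.1% TATAAA. Among the 90 epididymis-high genes that rose and have a window, these shares were 11.1%, 20%, 25.6% and 14.4% in the same order. Among the 53 vas-high genes that fell and have a window, they were 7.55%, 18.9%, 9.43% and 9.43%. A match describes the letters only and shows no binding.

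To set the mutant tissue beside epididymis and vas deferens, gene lists were drawn from a contrast whose group means hold no AKDH or WT vas deferens value. Those arrays did enter the estimate of the spread. WT epididymis was compared with DKO vas deferens, in a fit of the 21 male arrays that share 1 estimate of the spread, at an adjusted p below 0.01 and an absolute difference of at least 2, which gave 213 epididymis-high and 100 vas-high genes. Of the 213 epididymis-high genes, 119 rose and 9 fell in AKDH against WT, with a median difference of 1.17. Of the 100 vas-high genes, 69 fell and 1, the keratin Krt4, rose (median -1.12). Over all genes, 9.57% rose and 14.8% fell, with a median of -0.05. Without AKDH replicate 3, the counts were 112 and 6 for epididymis-high genes and 1 and 62 for vas-high genes, higher before lower. The 9 falls became 5 without AKDH replicate 1 and 6 without AKDH replicate 2. A fit of the 15 male arrays other than AKDH and WT vas deferens, added after the data were seen, gave 224 epididymis-high genes, of which 210 are in the first list, and 101 vas-high genes, which hold all 100 of the first. Of these, 119 rose and 8 fell among the epididymis-high genes, and 2 rose and 69 fell among the vas-high genes.

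The mean over the epididymis-high genes was 0.15, 0.09 and 0.34 in the AKDH arrays and -0.85, -1.26 and -0.86 in the WT vas arrays. The WT epididymis arrays gave 1.99, 1.86 and 2.02. For the vas-high genes, the means were -0.20, -0.18 and -0.52 in AKDH and 0.98, 1.04 and 1.00 in WT vas, while the WT epididymis gave -1.59, -1.49 and -1.52. The WT epididymis arrays helped choose both lists, so their place at the far end is fixed by that choice. The AKO epididymis arrays entered the choice only through the estimate of the spread. They gave 1.15, 1.44 and 1.26 for epididymis-high genes and -1.24, -1.40 and -1.36 for vas-high genes. Replicate 1 of AKO epididymis stood apart on the proximal epididymis genes, with a mean of 3.33 against 0.69 and 0.65 in replicates 2 and 3. On both lists every AKDH array lay between the WT vas deferens arrays and the AKO epididymis arrays. Of the epididymis-high genes, 13 are also sperm or spermatid genes, and the 9 that fell included Prm1, Prm2 and the Y RNA gene Rny1.

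**Figure D3:**
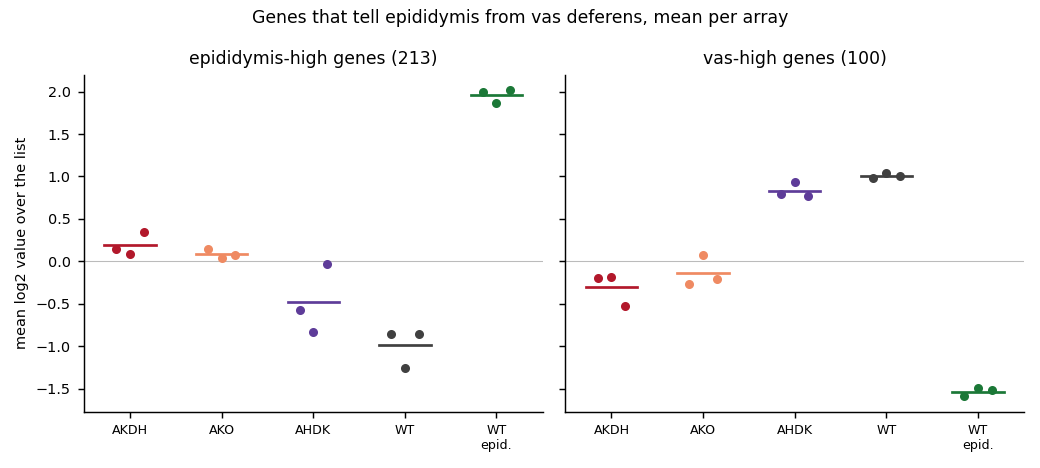
Mean log2 value per array (vertical axis) over 213 epididymis-high genes, left, and 100 vas-high genes, right; points are arrays and bars the mean of 3 arrays of a group. AKDH arrays lie between 0.09 and 0.34 on the left and between -0.52 and -0.18 on the right, while WT vas deferens arrays lie between -1.26 and -0.85 on the left and between 0.98 and 1.04 on the right; WT epididymis helped choose the genes.

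The 18 genes listed for the epithelium of vas deferens and cauda split in both directions, with 6 higher and 8 lower. This list was chosen with earlier results of these data known, so its counts are no independent support. Eci3, Cdkl1, Akr1cl, Ptprz1, Nmu and Crygc fell, and so did the transporter Abcg2 (-1.73) and the potassium channel Kcnj16 (-1.22). Those that rose included Car4, the sodium-proton exchanger Slc9a3 (2.18) and the chloride-bicarbonate exchanger Slc26a3 (1.13). The array means of this list were 0.81, 0.79 and 1.02 in WT vas deferens and -0.79, -0.67 and -0.73 in WT epididymis. Of 14 aldo-keto reductases, 3 rose and 4 fell. Akr1b7 was looked for and was not among the genes tested. Akr1c14, a hydroxysteroid dehydrogenase, fell by 1.22 and Akr1b10 by 0.64, while Akr1c12 rose by 0.92.

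Some genes of acid secretion rose. Of 24 proton pumping and bicarbonate genes, 11 rose and 1 fell (median 0.57), and 9 rose without AKDH replicate 3. The other 12 were not called, among them Atp6v0a4 (0.28), Rhcg (-0.15) and Cftr (0.03). Foxi1, the transcription factor of proton-secreting cells, had 0.95, 0.19 and 0.71 in AKDH and -0.78, -1.26 and -1.08 in WT (1.65, SE 0.23, adjusted p = 0.000535). All AKDH values lay above WT. The pump subunit Atp6v1b1 (1.10, SE 0.17) and the carbonic anhydrase Car12 (1.23, SE 0.18) also rose. In the proton pumping list the array means were 0.45, 0.12 and 0.35 in AKDH and -0.56, -0.73 and -0.35 in WT.

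Secreted proteins of the epididymis rose in part. Of 31 genes listed for the proximal epididymis, a list also chosen with earlier results known, 8 rose and 2 fell (median 0.04). Beside Rnase9, Gpr82 and Adam7, the carboxylesterase Ces5a rose by 2.19 and the ribonuclease family member Rnase12 by 1.44. The epididymal lipocalin Lcn5, a retinoid carrier of the proximal epididymis, fell instead, with -0.53, -0.73 and -1.31 in AKDH and 0.96, 0.22 and 0.97 in WT (-1.57, SE 0.40, adjusted p = 0.0138). Of the 12 lipocalin genes listed, which include Lcn2, Lcn3, Lcn4 and Ptgds, none rose and 2 fell. Of 42 beta-defensins, 11 rose and 5 fell, and with any 1 of the 6 arrays left out 2 or 3 fell. The risers were led by Defb38 and Defb37 and included Defb13 (2.25) and Defb43 (1.33).

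Of 39 Wfdc, Spink and Spint protease inhibitors, 15 rose and 2 fell (median 0.25). Besides Eppin, Spink13, Wfdc13 and Wfdc6a, Wfdc8 (2.20) and Wfdc11 (1.91) rose. Of 48 serpins 6 rose and 3 fell, with Serpinb9 (1.62), Serpina16 (1.65) and Serpinb5 (0.57) among the rises. The falls of serpins were 0 without WT replicate 1 and 1 without AKDH replicate 1, AKDH replicate 2 or WT replicate 2. Of 18 seminal vesicle and prostate genes, 2 rose (Spinkl by 2.32 and Ceacam10 by 1.28), and without AKDH replicate 3 it was 1. Of 38 glutathione genes 8 rose and 4 fell. Gstm7 (1.69, SE 0.15), Gstz1 (0.74) and Gpx3 (0.63) rose, and Gstm4 fell by 0.63. The 4 falls became 2 without AKDH replicate 2 or WT replicate 3.

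Among 20 steroid and androgen genes, 4 rose and 4 fell, and the falls were 2 without AKDH replicate 1, AKDH replicate 2, WT replicate 1 or WT replicate 2. Fkbp5, a gene that androgen and glucocorticoid receptors are known to activate, rose by 1.15 (SE 0.14). Esr1, the oestrogen receptor alpha gene, had -0.63, -0.80 and -1.08 in AKDH and 0.51, 0.36 and 0 in WT (-1.13, SE 0.24, adjusted p = 0.00566). Rxfp2, the receptor of insulin-like 3, fell by 0.71 (SE 0.15). Of 18 relaxin, Robo and Slit genes, 1 rose (5.56%) and 3 fell (16.7%), beside 9.57% and 14.8% of all genes.

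Of 17 other genes of the HoxA and HoxD clusters, 1 rose and 2 fell, which is 17.6% called beside 24.3% of all genes. Hoxa13, next to the targeted Hoxa genes, had -0.07, -0.09 and 0 in AKDH and 0.85, 0.97 and 0.64 in WT (-0.87, SE 0.20, adjusted p = 0.00795). The noncoding Hottip fell by 0.30. Hoxd4 rose by 0.73 (SE 0.21, adjusted p = 0.0252). Hoxd13, the end of the HoxD cluster, was -0.67 from WT without a call (adjusted p = 0.0875). Of 18 HoxB and HoxC genes 3 rose and none fell (16.7% called). Hoxc10, a member of the same paralogous group as Hoxa10, had 0.46, 0.44 and 0.20 in AKDH and -0.63, -0.50 and -0.49 in WT (0.90, SE 0.15, adjusted p = 0.00141). Hoxc8 rose by 1.08 (SE 0.34) and Hoxb4 by 0.59 (SE 0.17). Without AKDH replicate 3, 2 HoxB and HoxC genes rose and 1 fell, and 1 rose without AKDH replicate 1, AKDH replicate 2, WT replicate 1 or WT replicate 2.

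Among 48 transcription factors that pattern the tract, 6 rose (12.5%) and 8 fell (16.7%), close to the shares of all genes (9.57% and 14.8%). The rises were 1 without WT replicate 1 or 2, 2 without AKDH replicate 2, 3 without AKDH replicate 1 and 9 without WT replicate 3. Eya1, a transcriptional coactivator and phosphatase of organ development, had 0.04, -0.22 and -0.19 in AKDH and 1.81, 1.86 and 1.11 in WT (-1.71, SE 0.32, adjusted p = 0.0028). Eya4 fell by 0.75 and the Hox partner Pbx3 by 0.36, while Eya2 rose by 0.67. Eya2 had 0.59 in each AKDH array and -0.10, -0.05 and -0.08 in WT.

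Of 63 Wnt pathway genes, 10 rose (15.9%) and 8 fell (12.7%), beside 9.57% and 14.8% of all genes. Znrf3, a ligase that removes Wnt receptors, had 0.71, 0.54 and 0.73 in AKDH and -0.87, -1.18 and -1.09 in WT (1.70, SE 0.12, adjusted p = 1.45e-05). Axin2, a scaffold and common target of Wnt signalling, rose by 1.28 (SE 0.13) and the receptor Fzd6 by 0.75, whereas the nuclear effector Tcf7l2 fell by 0.67. The stem cell receptor Lgr5 fell by 2.14, the lowest value of the list.

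Of 64 BMP and TGF-beta genes, 7 rose (10.9%) and 10 fell (15.6%), shares close to those of all genes (9.57% and 14.8%). The falls were 2 without AKDH replicate 2, WT replicate 1 or WT replicate 2 and 5 without AKDH replicate 3. The receptors Bmpr1b (1.17) and Acvr1c (1.40), the antagonist Chrdl2 (1.05) and the effector Smad3 (0.57) rose. Of 18 hedgehog genes, 3 rose and 4 fell, and after quantile normalization 4 rose and 2 fell. The falls of hedgehog genes were also 2 without AKDH replicate 2 or WT replicate 2. The ligand Shh had 0.32, 0.30 and 0.40 in AKDH and -0.75, -0.96 and -0.64 in WT (1.13, SE 0.14, adjusted p = 0.000296). Its receptor and target Ptch1 rose by 0.52 and the inhibitor Sufu by 0.47. Of 37 FGF ligands and receptors 3 rose (8.11%) and 6 fell (16.2%), also close to the shares of all genes. Fgf12 was at 1.04 and the receptor Fgfr2 at -0.47. Of 22 retinoic acid genes 6 rose and 1 fell. Crabp2, which carries retinoic acid to the nucleus, rose by 1.19, the retinaldehyde dehydrogenase Aldh1a1 by 0.59 and the alcohol dehydrogenase Adh7 by 1.14, and Crabp1 fell by 0.42.

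Smooth muscle genes were lower in AKDH. Of 31, none rose and 20 fell (median -0.77). Actg2, the enteric gamma actin, had -0.29, -0.46 and -0.46 in AKDH and 0.66, 0.65 and 0.47 in WT (SE of the difference 0.17, adjusted p = 0.00143), and was called lower. Des, the intermediate filament of muscle, fell by 0.94, calponin Cnn1 by 0.92 and the small heat shock protein Hspb6 by 1.01. The array means of the list were 0.03, -0.25 and -0.36 in AKDH and 0.73, 0.62 and 0.24 in WT. The count rested on single arrays: 13 fell without AKDH replicate 3 and 11 without WT replicate 1 or WT replicate 2. WT epididymis had a mean of -0.47 for this list, on the same side of WT vas deferens as AKDH.

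Adipocyte genes were higher. Of 23, 18 rose and none fell (median 1.42), and 17 rose without AKDH replicate 3. Pck1, an enzyme of glycerol and glucose synthesis, had 2.13, 2.18 and 1.79 in AKDH and -0.44, -0.15 and 0.17 in WT (2.17, SE 0.27, adjusted p = 0.000217). The fatty acid carrier Cd36 (2.20), the glycerol phosphate dehydrogenase Gpd1 (2.14) and the lipid synthesis enzyme Acaca (1.00) also rose, and the hormone gene Adipoq had the largest rise of the list (2.38). The array means were 1.03, 0.80 and 0.85 in AKDH, 0.46, 0.17 and 0.86 in AKO, 0.87, 1.15 and 0.58 in AHDK, and -0.72, -0.40 and -0.02 in WT. The WT epididymis mean was -0.79, on the other side of WT vas deferens. The part of fat tissue in the other changes was not tested. Of 23 complement genes 3 rose and none fell, with the terminal component C6 at 1.78 and C4b at 0.81.

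**Figure D4:**
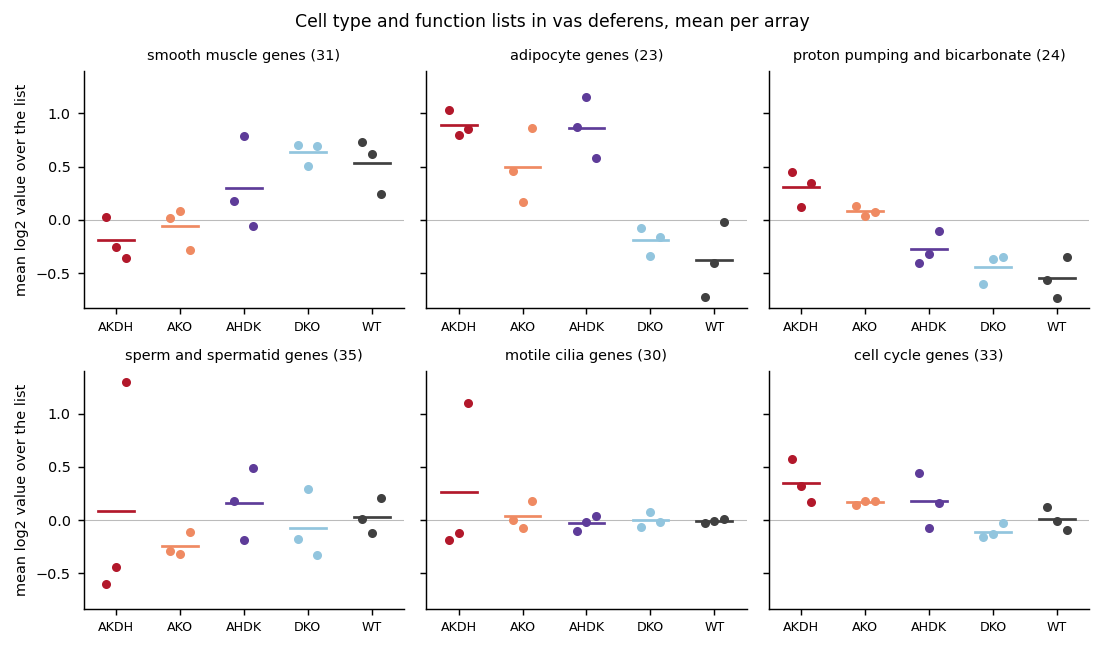
Mean log2 value per array (vertical axis) over 6 gene lists in the vas deferens of 5 genotypes; points are arrays, bars the mean of 3, and numbers in brackets the members. Adipocyte genes lie between 0.80 and 1.03 in AKDH and between -0.72 and -0.02 in WT, and AKDH replicate 3 reaches 1.30 for sperm genes and 1.10 for cilia genes.

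Other cell types gave fewer calls. Of 26 lymphocyte, NK and mast cell genes none rose and 7 fell, of which 4 fell without WT replicate 2. The B cell receptor gene Cd79b had -0.49, -0.22 and -0.61 in AKDH and 2.19, 1.51 and 1.75 in WT (-2.26, SE 0.50, adjusted p = 0.0071), and the mast cell carboxypeptidase Cpa3 fell by 1.44 (SE 0.33). Of 28 macrophage and dendritic genes 3 fell (1 without AKDH replicate 3 and 0 without WT replicate 2), among them Cd74 (-0.81), and none rose. Of 19 neutrophil and eosinophil genes 1 rose (S100a8, 1.79) and 3 fell, against 1 fall without WT replicate 2. Of 56 chemokines and receptors 4 rose (7.14%) and 9 fell (16.1%), beside 9.57% and 14.8% of all genes. The chemokine falls were 4 without WT replicate 1 and 5 without WT replicate 2. The membrane-bound chemokine Cx3cl1 rose by 0.71 and the scavenging receptor Ackr4 by 0.81, and Cxcl16 fell by 0.67. Of 31 interferon genes 2 rose and 8 fell, with the RNA sensors Ddx58 (-0.86) and Dhx58 (-0.85) lower and Irf9 (0.69) higher. The interferon falls were 5 without AKDH replicate 1, WT replicate 1 or WT replicate 2.

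Of 25 skeletal muscle genes 3 fell (1 without AKDH replicate 1 and 6 without AKDH replicate 2) and none rose, with array means of -0.20, 1.45 and -0.49 in AKDH and 0.33, 0.27 and 1.13 in WT. Among sperm and spermatid genes 1 of 35 rose (Cabyr, 1.21) and 3 fell, against 6 falls without AKDH replicate 3, and among motile cilia genes none of 30 rose and 2 fell. Cabyr was 0, 0 and 1.48 in AKDH, so its rise leaned on replicate 3. Of 20 endothelial genes 1 rose (Esam, 1.43) and 2 fell. Of 20 nerve and Schwann cell genes 1 rose (Dbh, 0.76) and 5 fell, among them the myelin gene Mbp (-0.90). The nerve falls were 1 without WT replicate 3 and 2 without any 1 AKDH array or WT replicate 2. Of 23 neuropeptides 1 rose and 9 fell, led by Nmu, with Grp at -1.65 and Cck at -0.87.

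Of 48 keratins 5 rose (10.4%) and 6 fell (12.5%), shares close to those of all genes (9.57% and 14.8%). After quantile normalization 4 rose and 3 fell. Without 1 array, keratin rises were 3 to 5 and falls 3 to 8, with 3 falls without AKDH replicate 1 or any 1 WT array. Krt4 (1.33) and the basal keratin Krt14 (0.74) rose, and Krt90 (-0.42) and Krt72 (-0.26) fell. Of 40 claudin and junction genes 6 rose and 8 fell, against 7 and 5 after quantile normalization. The tight junction genes Cldn1 (1.13) and Cgn (0.56) rose, and the cadherin Cdh6 (-1.24) and the gap junction gene Gjb2 (-0.96) fell.

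Among matrix genes the counts also leaned on single arrays. Of 44 collagens 2 rose (4.55%) and 8 fell (18.2%), beside 9.57% and 14.8% of all genes. The falls were 3 without AKDH replicate 1, AKDH replicate 2 or WT replicate 2 and 5 without WT replicate 1. The collagens Col20a1 (-0.37) and Col26a1 (-0.68) fell. Of 44 matrix metalloproteinase, Adamts and Timp genes 4 rose and 2 fell, and the rises were 0 without AKDH replicate 1, 1 without WT replicate 2 and 2 without AKDH replicate 2 or WT replicate 1. The secreted protease Adamts5 rose by 0.74 and Adamts1 fell by 1.15. Of 6 uroplakins 2 fell (Upk2, -1.42, and Upk3a, -0.27) and none rose.

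Cell cycle genes gave 5 rises and no fall among 33 (median 0.31). Mcm7, part of the replication helicase, had 1.26, 0.80 and 0.86 in AKDH and -0.15, -0.19 and -0.09 in WT (1.11, SE 0.19, adjusted p = 0.00178). Bub1 (1.01), Mcm3 (0.98) and Cdc6 (0.43) rose too. This count was unstable: 10 rose without AKDH replicate 3, and 2 without AKDH replicate 1, AKDH replicate 2 or WT replicate 2. It was 3 without WT replicate 1.

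Some small RNAs fell. Of 61 small nuclear, nucleolar and Y RNA genes 12 fell (19.7%, beside 14.8% of all genes) and none rose. Rny1, a Y RNA, had -1.66, -0.72 and -0.93 in AKDH and 0.45, 0.06 and 0.46 in WT (-1.43, SE 0.25, adjusted p = 0.00183). It was also low in DKO (mean -1.30) and AHDK (mean -0.86), and near 0 in AKO (mean -0.03). In AKDH against WT uterus, 38 of the 61 small RNA genes were called lower, beside 2.65% of all genes. The part of RNA preparation in this was not tested.

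**Figure D5:**
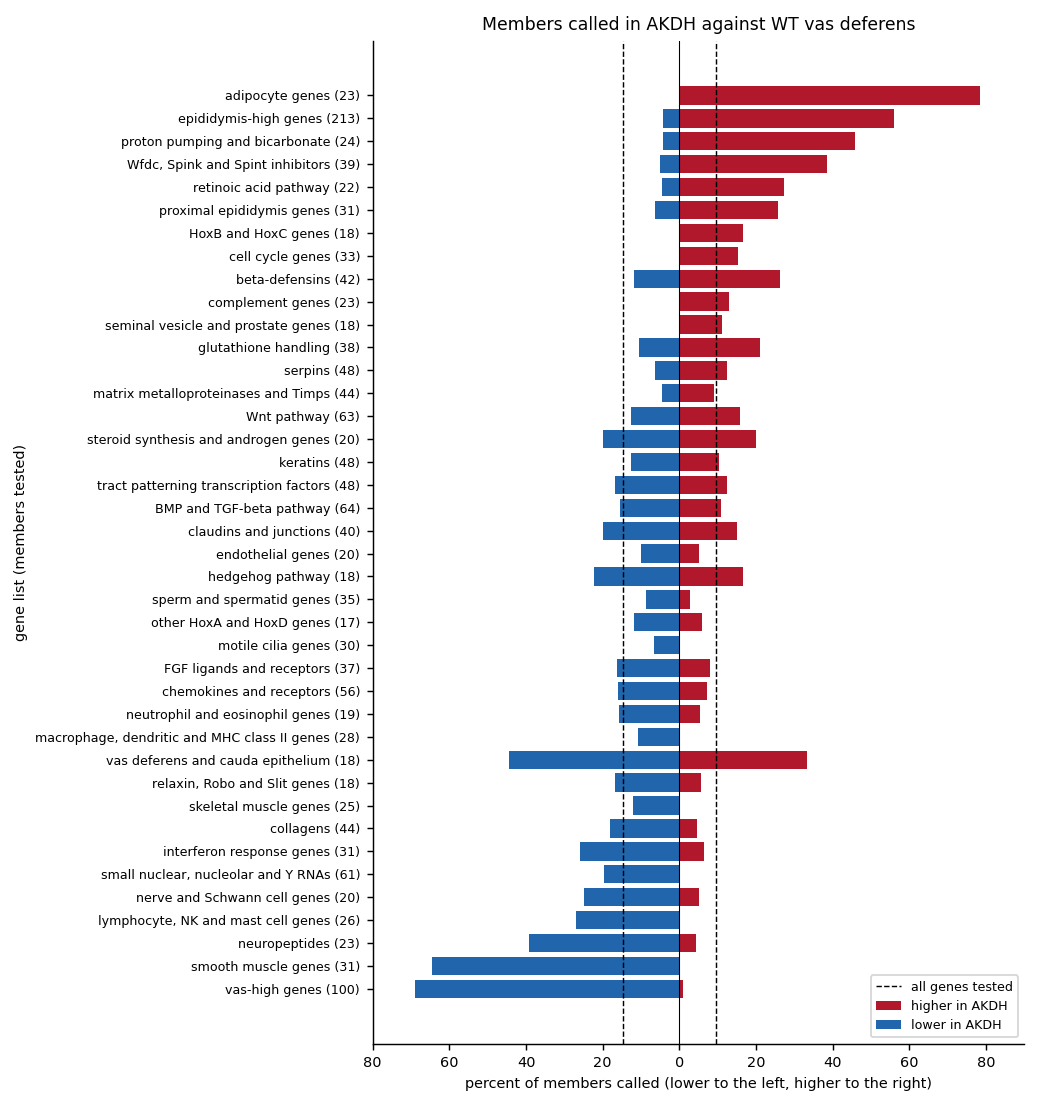
Percent of members called higher (red, to the right) and lower (blue, to the left) in AKDH against WT vas deferens for each gene list with at least 17 members; dashed lines mark the shares over all genes, 9.57% higher and 14.8% lower. Adipocyte and epididymis-high genes lie at the top, smooth muscle and vas-high genes at the bottom.

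Each of the other Hoxa-mutant genotypes was also set against the same 3 WT arrays, so these comparisons share their WT samples with that of AKDH. AKO against WT called 1865 genes (9.35%), 979 higher (4.91%) and 886 lower (4.44%). AHDK against WT called 827 genes (4.15%), 414 higher (2.08%) and 413 lower (2.07%). Of the 213 epididymis-high genes, 119 were called higher in AKDH, 94 in AKO and 20 in AHDK, and of the 100 vas-high genes 69, 61 and 6 were called lower in the same order of genotypes. Adipocyte genes called higher numbered 18 in AKDH, 13 in AKO and 14 in AHDK, of 23. Smooth muscle genes called lower numbered 20 in AKDH, 6 in AKO and 0 in AHDK, of 31, with medians of -0.77, -0.63 and -0.19. Between AKDH and AKO directly, none of the 31 smooth muscle genes (median -0.15) and none of the 23 adipocyte genes (median 0.35) was called.

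AKDH differs from AKO by 1 mutant Hoxd copy, and the test between them asks what that copy adds. It called 258 of 19938 genes (1.29%), 89 higher in AKDH (0.446%) and 169 lower (0.848%), and 7 of these differed by at least 1 log2 unit. With only the 6 arrays of AKDH and AKO, limma called 0 genes, and 2579 had an unadjusted p below 0.05. The count of 258 also fell to 52 without AKDH replicate 1, and to 72, 88 and 56 without AKO replicates 1, 2 and 3. Of the 213 epididymis-high genes 1 was higher and 1 lower in AKDH than in AKO, and of the 100 vas-high genes 3 were lower and none higher. For 11 of the 15 largest rises, AKDH and AKO values overlapped, and none of the 15 was called between them. Among the 15 largest falls the values overlapped for 8, and 2 were called. The share of all genes with overlapping AKDH and AKO values was not counted.

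A few vas deferens genes lay lower in AKDH than in AKO. Cdkl1 had -0.94, -1.12 and -0.95 in AKDH and 0, 0.21 and -0.34 in AKO (-0.96, SE 0.18, adjusted p = 0.025). Crygc had -1.60, -1.46 and -1.69 in AKDH and -0.65, 0 and 0.04 in AKO (-1.38, adjusted p = 0.0329). The zinc transporter Slc39a8 had -1.45, -0.99 and -1.43 in AKDH and -0.70, 0 and 0.18 in AKO (-1.12, adjusted p = 0.0244). None of the 3 genes overlapped between AKDH and AKO.

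Other genes called between AKDH and AKO stood near their AHDK level. Serpina3b, a serine protease inhibitor, had 2.03, 3.64 and 2.28 in AKDH and 0.32, -0.12 and -0.04 in AKO (2.60, adjusted p = 0.0108). AHDK gave 2.39, 3.73 and 2.93 for Serpina3b. DKO gave 0.12, -0.22 and 0.05, and WT -0.20, -0.04 and 0. All AKDH and AHDK arrays lay above all AKO, DKO and WT arrays. The mitochondrial assembly factor Ndufaf1 had a mean of 0.68 in AKDH, 0.88 in AHDK, 0.22 in DKO and -0.14 in AKO. The seminal vesicle gene Svs3b was -0.11, 2.14 and 0.03 in AKDH and 3.62, 3.98 and 5.15 in AKO, with -0.24, 2.03 and 0 in WT. Of 18 seminal vesicle and prostate genes, 1 was called lower in AKDH than in AKO, and the part of seminal vesicle tissue in the AKO arrays was not tested.

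The 89 genes called higher in AKDH than in AKO had array means of 0.36, 0.37 and 0.27 in AKDH, 0.28, 0.25 and 0.27 in AHDK, and 0.17, 0.19 and 0.17 in DKO. Their AKO means, which the choice of genes fixed as lower, were -0.10, -0.11 and -0.13, and their WT means were -0.14, -0.16 and -0.11. WT, AHDK and DKO values entered the choice only through the shared estimate of the spread. The 169 lower genes had -0.32, -0.25 and -0.36 in AKDH, -0.15, -0.19 and -0.13 in AHDK, and -0.11, -0.09 and -0.13 in DKO. Their AKO means, again fixed by the choice, were 0.14, 0.11 and 0.15, and their WT means were 0.17, 0.23 and 0.19. Every AKDH, AHDK and DKO array thus lay on one side and every AKO and WT array on the other, for both sets. Of the 258, 36 were also called between AKDH and AHDK. AKDH, AHDK and DKO are also the genotypes with a mutant Hoxd copy, while AKO and WT have none. Whether arrays of these genotypes were processed apart is not given in the labels. The part of the Hoxd copies and the part of processing cannot be told apart here, and neither was tested.

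AKDH and AHDK each carry 3 mutant copies, with the cluster that keeps 1 copy exchanged. The test between them called 808 genes (4.05%), 329 higher in AKDH (1.65%) and 479 lower (2.4%). Without AHDK replicate 2 the count was 436, and with only their 6 arrays it was 57. Of the epididymis-high genes 48 of 213 were higher in AKDH and 2 lower, and of the vas-high genes 54 of 100 were lower and 1 higher. Of the 15 largest falls 14 were called lower in AKDH than in AHDK, and of the 15 largest rises 9 were called higher. The same AKDH arrays chose these genes, which favours such calls.

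Akr1cl had -0.35, -0.34 and -0.48 in AKDH and 3.42, 3.11 and 3.45 in AHDK (-3.71, SE 0.22, adjusted p = 1.25e-05). Ptprz1 had -1.23, -1.07 and -1.30 in AKDH and 2.97, 3.14 and 3.41 in AHDK (-4.37, SE 0.39, adjusted p = 0.000238). The AHDK arrays of Ptprz1 lay among or above the WT arrays, and those of Akr1cl lay below them. Rnase9 had 0, 0.33 and -0.05 in AKDH and -2.34, -2.86 and -0.66 in AHDK (2.05, SE 0.45, adjusted p = 0.0262). The AHDK mean lay between the AKDH and WT means for all 15 of the largest rises and 12 of the 15 largest falls. These genes were chosen as the extremes of AKDH against WT, which favours a place between them. Car4 (2.62) and Cyp17a1 (3.03) were higher in AKDH than in AHDK. Of the 23 adipocyte genes 0 were called between AKDH and AHDK, and of the 31 smooth muscle genes 2 were lower in AKDH and none higher.

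The same genotype was also measured in the uterus, a tract organ of the other sex. AKDH effects in vas deferens and uterus differed for 2961 genes (14.9%), with the vas deferens effect the higher one for 1139 (5.71%) and the lower one for 1822 (9.14%). Of the 15 largest rises 14 differed between the tissues, the exception being Wfdc6a (0.97, SE 0.90, adjusted p = 0.512), and all 15 largest falls differed. These genes were chosen by their vas deferens effect, which is part of the tested difference, so both counts were favoured by the choice. None of the 15 rises was called in AKDH against WT uterus, where 3.93% of all genes were called higher. Of the 15 falls, Cdkl1 alone was called there, and it was higher in AKDH (1.30, adjusted p = 0.0299).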

How the data were processed

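RNA of mouse reproductive tract tissue was measured on 42 whole-transcript arrays, 21 of males, from 300 ng of total RNA per the labels' protocols. The deposited log values were taken as log2; how the authors summarised probes, normalized between arrays and took logs was not stated by the labels or headers. Every probe set has median 0 over the male arrays and again over the female arrays, read from the values, so absolute signal is gone and only direction and differences remain. Of 28856 probe sets, 21789 had 1 gene symbol, 1621 several and 5446 none. Symbols were updated by gene ID (21698 matched, RefSeq GRCm38.p6), and probe sets of a gene were averaged (999 genes had several). The medians of the vas deferens arrays lay between -0.0538 and 0.0322, and the number of arrays limits precision.

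limma 3.58.1 in R 4.3.3 fitted the 5 vas deferens genotypes together (15 arrays), the 30 vas deferens and uterus arrays for the tissue difference and the 21 male arrays for the segment lists. It was tested on simulated data. The members and lists were chosen with earlier results of these data known. The text names the targeted genes, the 15 genes at each end of the change with non-overlapping values (6 against AKO, 4 against AHDK and between tissues) and members drawn from the 4 of each list with the smallest p, of which not all are named. Uncharacterised transcripts, olfactory and vomeronasal receptors, pseudogenes and, outside their own list, small RNAs were passed over. Lgr5, Adipoq, Slc9a3, Slc26a3, Abcg2, Kcnj16, Rny1's levels in other genotypes and the Gm and Rik transcripts were chosen after their values were seen. Lists are described by counts and medians, with no set test. Replicate numbers were checked as pairs: for AKDH and WT vas deferens, same-numbered arrays correlated at 0.171, -0.087 and 0.043 after group means were removed, so no pairing was assumed.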

Additional observations from a re-analysis of the deposited data

Results flagged for a closer look

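The effect of the AKDH genotype, as the AKDH minus WT difference, was tested between vas deferens and uterus in 1 limma fit, and the genes with the most extreme called differences drew attention here. In each case the value is the vas deferens effect minus the uterus effect. Rnase9 (4.37, SE 0.47) and Gpr82 (4.31, SE 0.42) rose in vas deferens and had uterus effects of -0.01 and -0.12. Atp6v0d2 (4.42, SE 1.11, adjusted p = 0.00959) and Sectm1b (3.98, adjusted p = 0.00177) differed partly through the uterus, where neither was called. Atp6v0d2 had 0.23, 0.21 and -0.44 in AKDH uterus and 4.26, 0.53 and -0.30 in WT uterus, so 1 WT array carried most of that side. Sectm1b had 0.41, -0.88 and -0.86 in AKDH uterus and 2.55, 2.70 and -0.48 in WT uterus. Among falls, Cdkl1 (-5.59, SE 0.37) fell in vas deferens and rose in uterus (1.30, adjusted p = 0.0299). Ptprz1 (-4.43), Akr1cl (-4.42) and Eci3 (-4.21) had uterus effects of 0.20, 0.17 and -0.08. Groups of 3 arrays were too small for a test of single arrays.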

How the results depend on the processing

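The 30 largest changes of named genes kept their direction under all 14 alternatives each, and 29 kept their call; Adam7 lost it after quantile normalization and without WT replicate 2 (2.74 to 4.39 over its alternatives). For AKDH against WT, 4849 calls became 2841 with the 6 compared arrays alone, 8623 with array weights and 3032 (without WT replicate 2) to 4708 when 1 array was left out. Of the 4849 genes, 3494 were called in the same direction after quantile normalization and 4118 after median centring, and none of the 4849 changed sign under either. For AKDH against AKO, 258 calls became 0 with the compared arrays alone, 442 after quantile normalization, 86 among genes with the larger SD, 1021 with array weights, 141 with the replicate block and 52 to 240 without 1 array. For AKDH against AHDK, 808 became 57 with the compared arrays alone and 436 to 742 without 1 array. For the tissue difference, 2961 became 1789 with the compared arrays alone and 2141 to 2964 without 1 array. With the replicate block, AKDH against WT gave 4720 calls; the numbers did not pair the arrays, and the causes of these shifts were not tested. With only 6 arrays a fit has fewer residual degrees of freedom. Without 1 array, 45.1% to 53.5% of the epididymis-high genes rose and 62% to 68% of the vas-high genes fell. Of all counts of called list members, 260 of 1056 moved by over 1.5 times, mostly counts below 10. A filter on dim probe sets was not run, because centring left no signal over background. That also hides how near background any gene lay.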
